A study of Zea mays with 24 samples.

Results

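The transcripts described here were lower in maize source leaves under each of 3 single stresses: cold nights (low T), a low nitrate supply (low N) and a low phosphate supply (low P). A probe was taken when its stressed mean lay at least 1 log2 unit, a halving, below its own control mean in all 3 experiments. In addition all 4 stressed arrays had to lie below all 4 control arrays, and the probe had to be well above background on all 12 control arrays. Of 41780 transcript probes 48 met these limits, and 4 of them were left aside because they belong to lists of pathway genes that the study had drawn up. The 44 probes left are the members. Of these, 40 matched a gene model of the maize genome (37 loci, 3 of them with 2 member probes each) and 4 matched none. Because these values chose the members, every decrease below is given as a description, with no test.

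Source leaves export carbon and nitrogen to growing organs, and transcripts in them follow nutrient supply, hormones, leaf age and the transition to flowering. The members include ZCN8, a florigen of maize that is made in leaves and moves to the shoot apex, regulators that bind DNA, receptor and calcium-dependent kinases at the start of signalling chains, a phosphate relay protein of cytokinin signalling, methyltransferases that act on small acids, and transporters. By function, 8 members are methyltransferases or other transferases, 5 oxygenases or oxidoreductases, 5 kinases or signalling proteins, 5 regulators of transcription or development, 5 transport proteins, 2 glycosyl hydrolases, 6 other named proteins and 8 of unknown function.

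All plants were the inbred line B73, grown in pots of poor peat soil with nutrient solution from day 7. In the cold experiment, control T plants had nights of 20°C and low T plants nights of 4°C, both with 15 mM KNO3 and 0.5 mM KH2PO4, and leaf 5 was taken 20 days after germination. In the nutrient experiments, nights were at 20°C and leaf 6 was taken at 30 days. Control N and control P plants had the full solution, low N plants 0.15 mM KNO3, and low P plants 0.1 mM KH2PO4. Each of the 6 groups held 4 biological replicates with 1 array each. The cold and nutrient experiments also differed in growth chamber and light, so that leaf, age and chamber cannot be told apart between them. In a whole leaf, fewer cells of a type and less transcript per cell cannot be told apart either.

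Levels are log2 signals relative to the 75th percentile of the same array, so that 0 is that percentile and 1 unit is a factor of 2. No member spot was saturated or had an outlier flag, and 31 of the 44 members were well above background on all 24 arrays. Between 25780 and 36966 probes per array were well above background. Of 6 probes for leaf enzymes, 5 stood above 99% of all probes even on the array where each was lowest (C4 phosphoenolpyruvate carboxylase, NADP-malic enzyme, phosphoenolpyruvate carboxykinase and 2 rubisco large subunit probes), and that for pyruvate orthophosphate dikinase ranged from -1.23 to 2.47. Of 5 senescence markers 1 fell and 1 rose under low T, 0 fell and 1 rose under low N, and 0 fell and 2 rose under low P, by limma at over 2-fold and an adjusted p under 0.05. Their part in the decreases was not tested. By the same limits 40 members passed under low T, 42 under low N and 44 under low P, beside 7.11%, 3.14% and 3.01% of all 31507 tested probes called lower, and nothing is read from these counts because the rule used the same contrasts.

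The decreases ranged from 1.01 to 5.49 log2 units under low T, from 1.10 to 6.25 under low N and from 1.04 to 4.24 under low P. Their medians were -2.42, -1.91 and -1.61, beside -0.07, -0.04 and 0.03 over all tested probes. The largest of the 3 decreases came under low T for 24 members, under low N for 14 and under low P for 6. With this scaling cold nights gave the largest mean decrease for most members, while the LOB domain protein was lowered most by low N and the GDSL lipase by low P. Low T also had the largest median decrease with quantile normalization (-2.26) and spike-in scaling (-1.97). With normexp background correction it had the smallest, with medians of -1.15, -1.59 and -1.23 under low T, low N and low P.

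**Figure D1:**
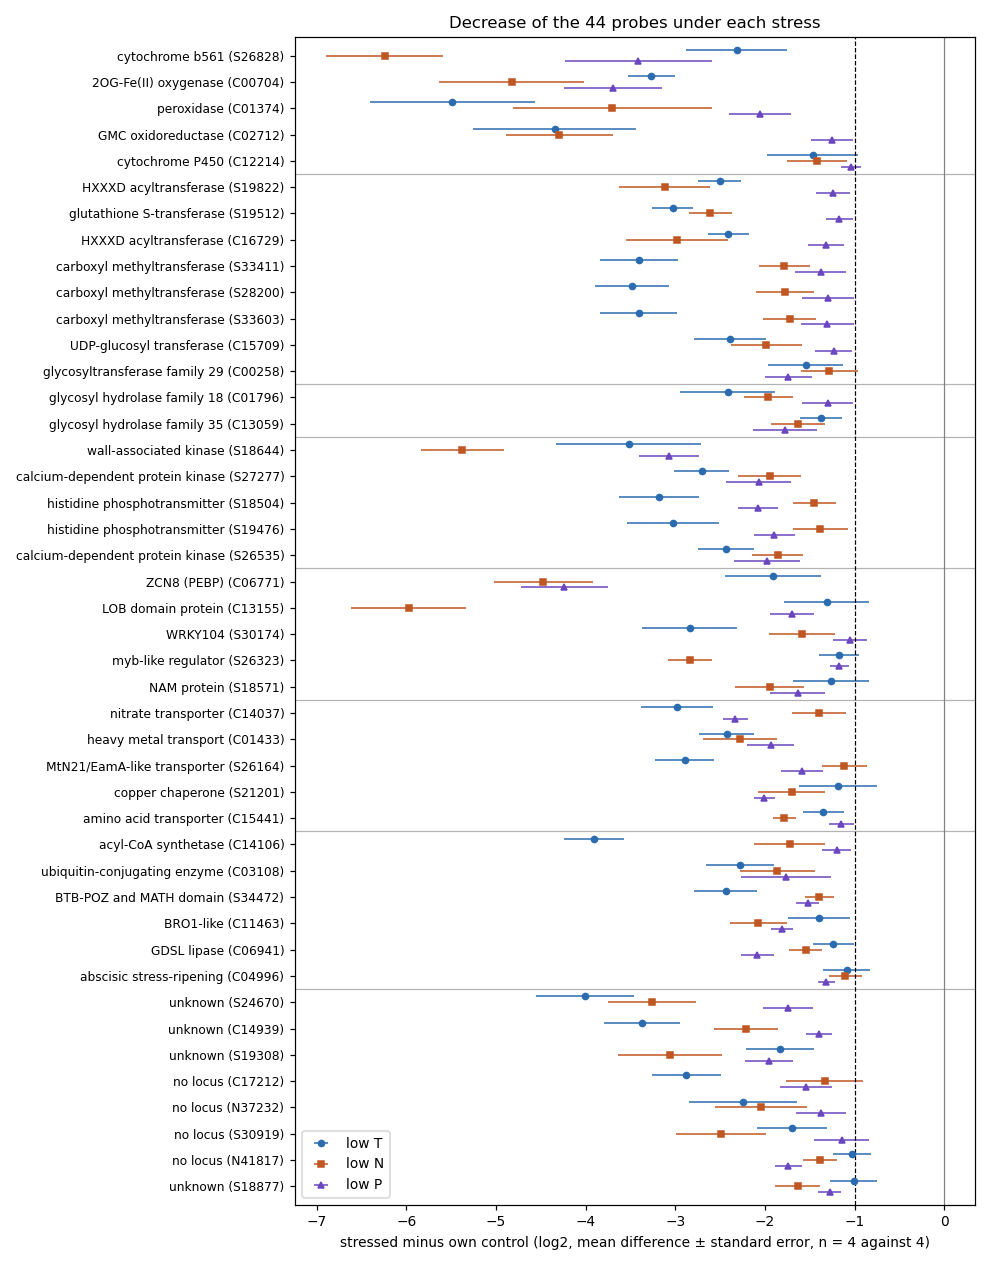
Mean log2 difference of stressed against own control leaves (x axis) for the 44 member probes (y axis, grouped by function), with 1 symbol per stress, bars of 1 standard error and n = 4 against 4. The dashed line is the limit of -1 that chose the probes, and the low N symbols of cytochrome b561 and the LOB domain protein lie farthest left.

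Among oxygenases and oxidoreductases, cytochrome b561 (OptiV1S26828, GRMZM2G057467), a membrane protein that passes electrons from ascorbate, had a mean difference of -3.99 over the 3 stresses, level with that of the wall-associated kinase. Its levels were -3.81, -4.67, -3.14 and -2.61 in control T and -5.02, -7.15, -5.28 and -6.04 in low T. In control N this cytochrome stood at -0.49, -0.47, 1.68 and 1.15, and in low N at -5.35, -4.57, -6.26 and -6.94. Control P gave 3.09, 2.51, 1.35 and 3.66 and low P -0.27, 1.31, -2.06 and -2.05 for it. Only 2 of 4 low T and 2 of 4 low N arrays were well above background, so the decrease of 6.25 ± 0.65 (SE) under low N rests partly on dim spots.

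A 2-oxoglutarate and iron-dependent oxygenase (OptiV1C00704, GRMZM2G086231), of a family of hydroxylating enzymes, read -4.96, -4.19, -4.55 and -4.92 in control T and -7.91, -7.52, -8.54 and -7.72 in low T. This oxygenase stood at -2.45, -1.74, -1.16 and -0.92 in control N and at -8.06, -7.79, -4.79 and -4.93 in low N, where replicates 1 and 2 lay about 3 units below replicates 3 and 4. Its control P arrays read -1.51, -2.20, -2.34 and -1.30 and its low P arrays -4.09, -6.12, -6.73 and -5.21. None of the low T arrays, 1 low N array and 2 low P arrays were well above background. The decrease under low T therefore has only an approximate lower bound, 4.04-fold.

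A peroxidase (OptiV1C01374, GRMZM2G149273), one of the enzymes that oxidize phenolics with hydrogen peroxide, had the largest measured decrease of any member under low T. The peroxidase read -3.52, -3.73, -1.09 and -0.50 in control T and -8.58, -8.56, -7.92 and -5.73 in low T. It stood at -1.74, -2.03, 2.86 and 1.27 in control N and -3.90, -5.05, -2.96 and -2.54 in low N, with control N replicates 3 and 4 at least 3 units above replicates 1 and 2. Control P arrays gave 0.19, 1.0, 1.22 and -0.19 and low P arrays -1.47, -0.90, -1.92 and -1.72. Only 1 of the 4 low T arrays was well above background, and the SE of the difference was 0.92, 1.11 and 0.35 in the cold, low N and low P experiments. The remaining members of the class were a GMC oxidoreductase, a flavin-dependent enzyme described further below, and a cytochrome P450 (OptiV1C12214), which fell by 1.47, 1.42 and 1.04.

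Of the transferases, an HXXXD-type acyltransferase (GRMZM2G079616), of a family that moves acyl groups onto alcohols and amines, was measured by 2 member probes. The first, OptiV1S19822, read 2.41, 2.06, 1.68 and 1.52 in control T and -0.15, -0.59, -0.82 and -0.79 in low T. It gave 2.47, 2.45, 2.98 and 3.11 in control N and -1.32, -1.36, 0.83 and 0.39 in low N, where replicates 1 and 2 were again the lower pair. Its values were 1.55, 1.97, 2.0 and 1.97 in control P and 0.46, 0.28, 1.13 and 0.66 in low P. The second probe, OptiV1C16729, differed from it by at most 0.14 in the 3 decreases and read 2.38, 2.10, 1.91 and 1.44 in control T and -0.13, -0.51, -0.80 and -0.38 in low T. For this second probe control N gave 2.37, 2.54, 3.18 and 3.04 and low N -1.36, -1.23, 1.01 and 0.78. Control P gave 1.65, 2.04, 2.04 and 2.32 and low P 0.73, 0.23, 1.09 and 0.72. On both probes the decrease was smallest under low P, at 1.24 and 1.32.

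A glutathione S-transferase (OptiV1S19512, GRMZM2G052625), which joins glutathione to reactive compounds, stood at -3.02, -2.76, -2.17 and -2.21 in control T and -5.48, -5.86, -5.29 and -5.63 in low T. The same transferase read -0.84, -1.27, -1.06 and -0.84 in control N and -3.54, -4.29, -3.29 and -3.33 in low N. Its control P arrays lay at -0.88, -0.58, -0.79 and -0.90 and its low P arrays at -2.10, -1.60, -2.24 and -1.91. The arrays of each group lay close together, and the decreases of 3.03 ± 0.23 and 2.61 ± 0.24 (SE) under low T and low N stood against 1.17 ± 0.15 under low P.

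All 3 probes annotated as carboxyl methyltransferases among the members (GRMZM2G050307, GRMZM2G133996 and GRMZM2G050321) moved almost alike. Enzymes of this family methylate small acids such as salicylate and jasmonate. They were 10.6-, 11.2- and 10.6-fold lower under low T, 3.45-, 3.42- and 3.31-fold under low N, and 2.60-, 2.45- and 2.47-fold under low P. OptiV1S33411, for example, read 3.43, 3.56, 3.75 and 3.43 in control T against 0.23, 1.39, -0.97 and -0.09 in low T. Its control N arrays lay at 5.04, 4.78, 3.83 and 4.49 against 2.83, 2.39, 2.56 and 3.22 in low N, and control P arrays at 3.95, 4.09, 4.06 and 3.98 against 2.36, 1.96, 3.44 and 2.81 in low P. OptiV1S33411 and OptiV1S33603 correlated at 0.999 over the 24 arrays, which share groups and array effects, and whether 1 probe reads both transcripts was not tested. Also in this class, a UDP-glucosyl transferase (OptiV1C15709) fell by 2.39, 1.99 and 1.23 and a GT29 glycosyltransferase (OptiV1C00258) by 1.55, 1.29 and 1.74 under low T, low N and low P.

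The glycosyl hydrolases, which cut sugar polymers, were both lower. A GH18 hydrolase, of the family that holds the chitinases (OptiV1C01796, GRMZM2G430936), read -5.78, -5.74, -4.0 and -6.0 in control T and -7.36, -7.88, -8.89 and -7.06 in low T. It stood at -3.71, -3.75, -3.41 and -4.03 in control N and -6.08, -6.18, -5.02 and -5.47 in low N. Its control P and low P arrays read -3.26, -3.32, -3.51 and -3.76 and -3.93, -5.39, -4.75 and -4.98. It was dim, with none of the low T arrays and 3 of 4 low N and low P arrays well above background. Under low T the decrease has only an approximate lower bound, 2.45-fold.

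A GH35 hydrolase, of the family that holds the beta-galactosidases of the cell wall (OptiV1C13059, GRMZM2G038281), read -0.30, -0.31, 0.28 and -0.12 in control T and -1.67, -0.87, -1.59 and -1.83 in low T. This hydrolase gave 0.68, 0.22, -0.72 and -0.25 in control N and -1.60, -1.86, -1.88 and -1.27 in low N. In control P it stood at -0.09, 0.27, -0.13 and -0.10 and in low P at -2.08, -2.73, -0.88 and -1.48. All 3 of its decreases were small and close together, at 1.38 ± 0.24, 1.63 ± 0.30 and 1.78 ± 0.36 (SE).

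Among kinases and signalling proteins, a wall-associated kinase (OptiV1S18644, GRMZM2G075286), a receptor type that spans the plasma membrane and contacts the cell wall, had the largest measured mean decrease. The kinase read -6.09, -5.48, -2.53 and -3.04 in control T and -7.92, -7.22, -8.70 and -7.37 in low T. Its arrays gave -1.65, -1.75, -0.86 and 0.45 in control N and -6.77, -6.37, -6.23 and -5.96 in low N. For the kinase, control P stood at -0.55, -1.18, -0.94 and -0.03 and low P at -2.88, -3.98, -4.01 and -4.12. None of the low T or low N arrays was well above background, so these decreases have only approximate lower bounds, 5.24-fold and 28.8-fold. Under low P, with all 4 arrays well above background, the kinase was 8.42-fold lower.

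A calcium-dependent protein kinase (GRMZM2G332660), which couples calcium signals to phosphorylation, had 2 member probes that differed by at most 0.27 in any decrease. OptiV1S27277 read -2.99, -3.07, -2.27 and -1.87 in control T and -5.24, -5.49, -5.57 and -4.72 in low T. OptiV1S27277 gave -1.96, -2.04, -1.47 and -1.23 in control N and -4.38, -3.94, -2.79 and -3.38 in low N, and -2.05, -0.73, -1.32 and -2.26 in control P and -3.62, -3.74, -3.13 and -4.17 in low P. The 3 decreases of this probe, 2.71, 1.95 and 2.07, lay close together.

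A histidine-containing phosphotransmitter (GRMZM2G173710), the protein that carries phosphate from cytokinin receptors to response regulators, also had 2 member probes, within 0.18 of each other. OptiV1S18504 read 0.83, 0.47, 2.18 and 1.94 in control T and -2.17, -2.42, -1.60 and -1.13 in low T. OptiV1S18504 stood at 2.64, 2.16, 2.03 and 2.09 in control N and 0.90, 0.46, 0.42 and 1.35 in low N, and at 3.16, 2.50, 2.25 and 3.23 in control P and 0.69, 0.78, 0.78 and 0.58 in low P. It was 9.09-fold lower under low T, 2.73-fold under low N and 4.22-fold under low P.

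Among regulators, ZCN8 (OptiV1C06771, GRMZM2G179264, a phosphatidylethanolamine-binding protein) had the largest measured mean decrease. ZCN8 read -4.43, -4.45, -2.09 and -2.59 in control T and -5.20, -5.24, -5.41 and -5.35 in low T. ZCN8 stood at -0.46, -0.89, 0.87 and 0.02 in control N and -5.36, -5.48, -4.26 and -3.26 in low N. In control P and low P the ZCN8 values were 0.72, 0.74, 1.04 and -0.12 and -2.82, -4.81, -2.81 and -4.13. It was 22.2-fold lower under low N, 18.9-fold under low P and 3.75-fold under low T, where the control arrays themselves lay below every control array of the nutrient experiments.

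A LOB domain protein (OptiV1C13155, GRMZM2G044902, LOB14 in RefSeq), of a family of plant-specific DNA-binding regulators, was lowered most under low N. The LOB probe read -1.03, -1.17, -0.32 and 0.76 in control T and -1.24, -1.21, -2.16 and -2.41 in low T. It gave -1.15, -2.16, -0.53 and -1.27 in control N and -8.71, -6.35, -5.89 and -8.06 in low N, where no array was well above background. Its control P arrays stood at -0.34, 0.28, 0.40 and -0.69 and its low P arrays at -1.53, -1.74, -1.86 and -2.01. The approximate lower bound under low N is 23-fold, against measured decreases of 2.49-fold under low T and 3.24-fold under low P. In low T the nearest control array lay only 0.04 above the nearest stressed one. A second probe of the locus, OptiV1S23039, no member, read -1.34, -6.23 and -1.97 for the same 3 differences.

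WRKY104 (OptiV1S30174, GRMZM2G169149), annotated as a pathogen-induced transcription factor, read -2.82, -3.16, -1.22 and -1.49 in control T and -4.10, -4.94, -5.95 and -5.06 in low T. WRKY104 stood at 0.33, 0.0, 0.93 and 1.52 in control N and -0.49, -1.57, -0.97 and -0.54 in low N. For WRKY104 control P gave 1.33, 1.43, 1.48 and 1.66 and low P 0.20, 0.0, 0.75 and 0.75. The low P decrease of 1.05 ± 0.19 (SE) was close to the limit. The other regulators, a myb-like protein (OptiV1S26323) and a NAM protein (OptiV1S18571), fell by 1.17, 2.84 and 1.17 and by 1.27, 1.95 and 1.63.

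**Figure D2:**
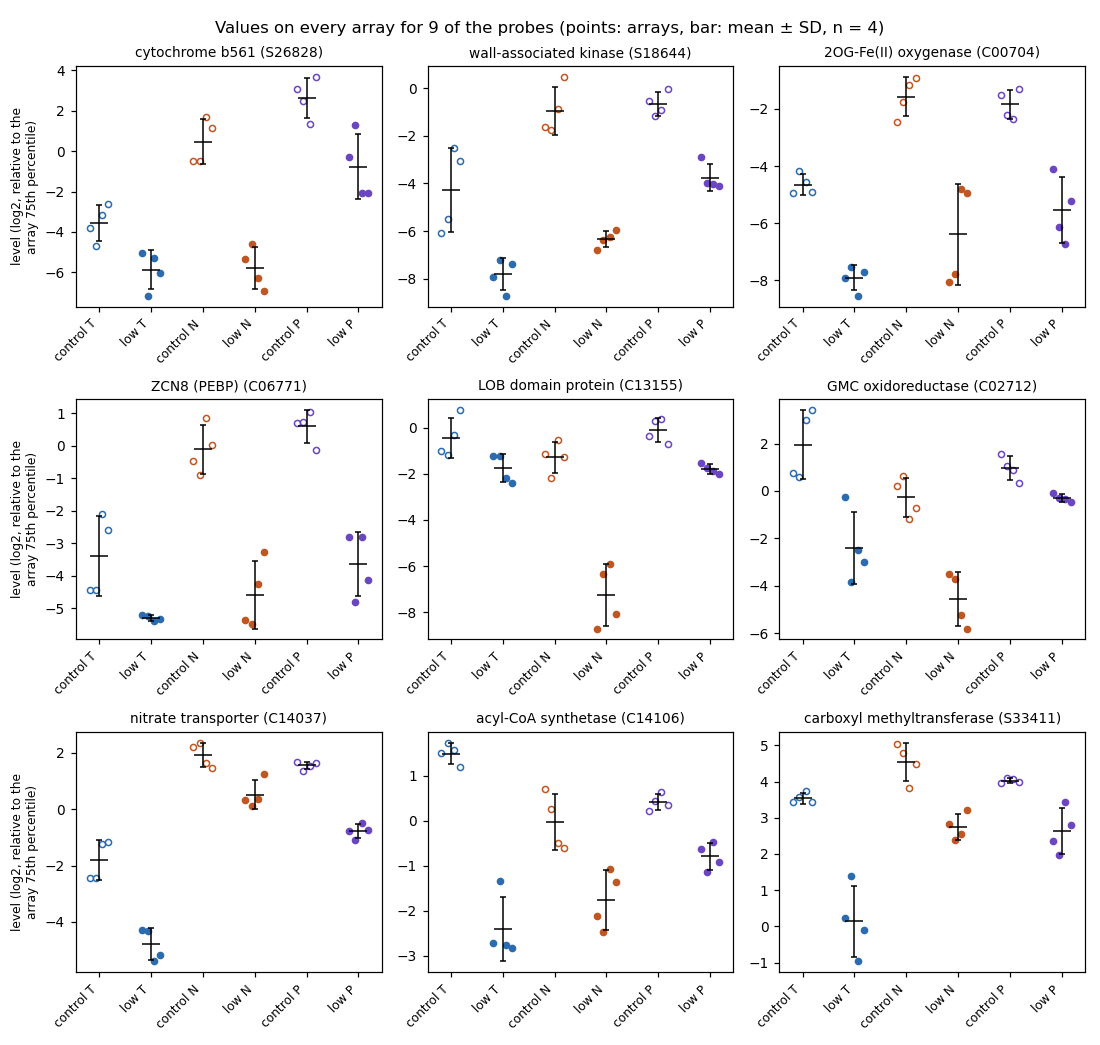
Log2 level relative to the array's 75th percentile (y axis) on each of the 24 arrays for 9 member probes, by group (x axis). Points are arrays, open for control and filled for stressed, and bars are the mean ± SD (n = 4). Stressed points lie below the control points of the same experiment in all 9 panels, while control T lies below control N and control P for cytochrome b561, ZCN8 and the nitrate transporter.

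Of the transport proteins, the nitrate transporter (OptiV1C14037, GRMZM2G044851) read -2.43, -2.43, -1.24 and -1.16 in control T and -4.30, -4.32, -5.41 and -5.18 in low T. This transporter stood at 2.20, 2.35, 1.64 and 1.47 in control N and 0.33, 0.13, 0.35 and 1.27 in low N. Its control P arrays gave 1.67, 1.37, 1.55 and 1.64 and its low P arrays -0.79, -1.09, -0.48 and -0.72. It was 7.91-fold lower under low T, 2.63-fold under low N and 5.03-fold under low P. The second probe of its locus, OptiV1C13647, was left aside by the rule as a listed pathway gene (nitrate transporter 1.5-like, a type that in Arabidopsis loads nitrate into the xylem), and its decreases lay within 0.20 of these.

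A heavy metal transport and detoxification protein (OptiV1C01433, GRMZM2G086066) read -2.89, -2.66, -1.85 and -2.98 in control T and -4.63, -5.57, -4.68 and -5.21 in low T. It gave -1.80, -2.04, -1.01 and -0.99 in control N and -3.68, -4.63, -3.89 and -2.76 in low N, and 0.06, -0.72, -0.74 and 0.08 in control P and -1.95, -2.79, -2.25 and -2.09 in low P. Its 3 decreases were among the most even, at 2.43, 2.28 and 1.94. An MtN21/EamA-like transporter (OptiV1S26164, GRMZM2G108537), of a family with amino acid exporters in Arabidopsis, stood at 0.36, 0.37, 1.18 and 1.75 in control T and -2.25, -1.61, -2.04 and -2.02 in low T. The MtN21-like probe read 1.45, 1.54, 1.56 and 1.39 in control N and -0.10, 0.0, 1.02 and 0.58 in low N, and 1.46, 1.71, 1.56 and 1.65 in control P and -0.18, -0.31, 0.76 and -0.24 in low P. Low N replicate 3 came within 0.38 of the lowest control N array. A copper chaperone (OptiV1S21201) fell by 1.19, 1.70 and 2.01 and an amino acid transporter (OptiV1C15441) by 1.35, 1.79 and 1.15.

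Of the other named members, an acyl-CoA synthetase (OptiV1C14106, GRMZM2G092813), which activates fatty acids, read 1.51, 1.72, 1.57 and 1.18 in control T and -2.72, -1.34, -2.76 and -2.84 in low T. The synthetase gave 0.70, 0.26, -0.49 and -0.61 in control N and -2.13, -2.48, -1.07 and -1.36 in low N, and 0.21, 0.44, 0.63 and 0.35 in control P and -0.64, -1.15, -0.47 and -0.92 in low P. It was 15.0-fold lower under low T, and 3.30-fold and 2.30-fold lower under low N and low P. A second probe of the locus, OptiV1C14094, no member, read -4.27, -0.90 and -0.74, so the loss under the nutrient stresses was under a halving on that probe.

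A ubiquitin-conjugating enzyme (OptiV1C03108, GRMZM2G097509), which passes ubiquitin to target proteins, read -5.07, -4.93, -3.88 and -4.13 in control T and -6.09, -6.47, -7.02 and -7.54 in low T. This enzyme stood at -3.51, -3.76, -2.60 and -2.92 in control N and -5.73, -5.58, -4.96 and -3.97 in low N, and at -3.02, -3.95, -1.75 and -3.69 in control P and -4.01, -5.37, -5.19 and -4.89 in low P. The lowest control P array and the highest low P array were 0.06 apart. A protein with BTB-POZ and MATH domains (OptiV1S34472, GRMZM2G428119), of a family of adaptors of ubiquitin ligases, read -3.16, -2.90, -2.21 and -2.29 in control T and -4.66, -4.48, -5.87 and -5.32 in low T. The BTB-POZ probe gave -2.44, -2.60, -2.29 and -2.54 in control N and -3.55, -4.01, -3.77 and -4.10 in low N, and -2.78, -2.62, -3.01 and -3.10 in control P and -4.38, -4.45, -4.19 and -4.58 in low P. Its SDs in the nutrient experiments were 0.14 to 0.25. A BRO1-like protein (OptiV1C11463) fell by 1.40, 2.07 and 1.82, a GDSL lipase (OptiV1C06941) by 1.24, 1.55 and 2.09, and an abscisic stress-ripening protein (OptiV1C04996) by 1.09, 1.10 and 1.31.

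Of the members with unknown function, OptiV1S24670 (GRMZM2G073969) read -0.24, -0.39, 1.43 and 2.10 in control T and -3.04, -3.56, -3.49 and -3.05 in low T. OptiV1S24670 stood at 1.87, 1.76, 3.31 and 2.37 in control N and -1.64, -1.73, -0.36 and 0.01 in low N, and at 2.56, 3.01, 3.56 and 2.10 in control P and 1.05, 1.06, 0.97 and 1.16 in low P. Its decreases followed the most common order, 4.01 under low T, 3.26 under low N and 1.75 under low P. OptiV1C14939 (GRMZM2G470882) gave -1.31, -0.86, -0.11 and 0.0 in control T and -3.98, -2.92, -4.25 and -4.62 in low T. OptiV1C14939 read 0.38, 0.05, -0.06 and 0.93 in control N and -2.24, -2.65, -1.48 and -1.19 in low N, and 0.51, 0.47, 0.23 and 0.79 in control P and -0.79, -1.19, -0.88 and -0.73 in low P. It had the same order, with 3.37, 2.21 and 1.40. OptiV1S19308 (GRMZM2G134219) stood at -1.68, -2.0, -0.70 and -0.21 in control T and -2.68, -3.08, -3.12 and -3.04 in low T. OptiV1S19308 gave -0.53, -0.52, -2.41 and -0.55 in control N and -4.65, -3.35, -3.13 and -5.11 in low N, and 0.40, 0.63, 0.32 and -0.70 in control P and -1.83, -1.95, -1.68 and -1.68 in low P. Control N replicate 3 lay 1.86 below the other control N arrays for this probe.

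The members nearest to the limit were OptiV1S18877 (unknown), with a smallest decrease of 1.01 under low T, OptiV1N41817 (no locus), with 1.03 under low T, and the cytochrome P450, with 1.04 under low P. Just outside were a class III alcohol dehydrogenase (OptiV1S33049), whose smallest decrease was 0.991, a terpenoid cyclase family protein (OptiV1C02132) and a further pathogen-induced transcription factor (OptiV1S33967), both with 0.989. The last fell by 4.19 under low T and 1.77 under low N, so the limit parts it from members with smaller decreases.

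The size of the decrease differed between stresses for some members. These differences were tested as interactions by limma over all 24 arrays. They are built from the values that chose the members, although the rule did not use their order. The counts are read only beside the share of all probes. Adjusted p-values of single members, given further below, describe these chosen values and are no independent tests. The decreases under low T and low N differed for 13 members (29.5%), beside 22.4% of all tested probes. Those under low T and low P differed for 15 (34.1%), beside 38.9%, and those under low N and low P for 6 (13.6%), beside 19.9%. None of these shares was far from the background, and nothing is read from them. At least 1 such difference was found for 23 members, 2 for 11 and 3 for 0, counts given without a share of all probes and only as a description. In the first comparison 9 of the 44 members (20.5%) were lowered more by low T, beside 11% of all tested probes called in that direction, and 4 (9.09%) more by low N, beside 11.4%. In the second, 12 (27.3%) were lowered more by low T, beside 21%, and 3 (6.82%) more by low P, beside 17.9%. In the last, 6 (13.6%) were lowered more by low N, beside 11.3%, and 0 more by low P, beside 8.59%. Near-alike probes were each counted, and no count per locus was made. The 9 include the 3 carboxyl methyltransferase probes and both phosphotransmitter probes, the 12 include the same 3, and the 6 include both acyltransferase probes. Leaving out the arrays of 1 replicate number left 5 to 14, 8 to 13 and 3 to 5 members past the threshold in the 3 comparisons. Only 2 of the 34 differences passed under every alternative in which they could be tested. These were the LOB domain protein between low T and low N and the acyl-CoA synthetase between low T and low P. The LOB domain protein, dim in low N, could not be tested among probes well above background on all 24 arrays.

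The largest difference was that of the LOB domain protein, lowered by 4.66 ± 0.75 (SE, adjusted p = 0.000179) more under low N than under low T and by 4.28 ± 0.75 (adjusted p = 0.000401) more than under low P. Because no low N array was well above background, the low N side of these differences is known only as an approximate bound. With normexp background correction the first was 1.85 (adjusted p = 0.0166) and the second -1.40 (adjusted p = 0.0679). The myb-like regulator had the same pattern at a smaller size, with 1.66 ± 0.29 more under low N than under low T (adjusted p = 0.000447) and 1.66 ± 0.29 more than under low P (adjusted p = 0.00044), and neither passed with normexp (adjusted p = 0.0541 and 0.0779). Cytochrome b561 was lowered by 3.93 ± 1.06 more under low N than under low T (adjusted p = 0.0111). ZCN8 was lowered less by low T than by low N (2.57 ± 0.81, adjusted p = 0.0267) or low P (2.33 ± 0.81, adjusted p = 0.0271), and its decreases under low N and low P differed by -0.24 ± 0.81. The cytochrome difference did not pass without replicate 1 or 3 (adjusted p up to 0.0795), nor those of ZCN8 without replicate 1 or 2 (adjusted p up to 0.18 and 0.21).

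Cold nights took more than both nutrient stresses from the acyl-CoA synthetase (by 2.18 ± 0.48 against low N, adjusted p = 0.00267, and 2.71 ± 0.48 against low P, adjusted p = 0.000166), the 3 carboxyl methyltransferases (by 1.62 to 1.71, and by 2.02 to 2.19) and the MtN21/EamA-like transporter (by 1.78 ± 0.41 and 1.31 ± 0.41, adjusted p = 0.00365 and 0.0151). Against low N, the synthetase did not pass without replicate 3 (adjusted p = 0.0614), the methyltransferases not without replicate 1, 3 or 4 nor with normexp or spike-in scaling, and the transporter not without replicate 4 or with normexp (adjusted p = 0.0521 and 0.068). Against low P, the transporter did not pass without replicate 3 or 4 (adjusted p = 0.106 and 0.076), with spike-in scaling (adjusted p = 0.0899) or with normexp, where its difference was -0.86 (adjusted p = 0.211). With the slide as a random block, the transporter (adjusted p = 0.17) and the 3 methyltransferases (adjusted p = 0.105 to 0.114) did not pass against low P either. Low P took least from the glutathione S-transferase, by 1.85 ± 0.31 against low T (adjusted p = 8.74e-05) and 1.44 ± 0.31 against low N (adjusted p = 0.00246). With normexp these differences of the glutathione S-transferase were -0.32 and -0.97 (adjusted p = 0.727 and 0.15), and the second did not pass with spike-in scaling either (adjusted p = 0.107). The GMC oxidoreductase (OptiV1C02712, GRMZM2G166906) read 0.77, 0.61, 3.0 and 3.40 in control T and -0.26, -3.83, -2.49 and -3.02 in low T. It gave 0.19, 0.62, -1.17 and -0.70 in control N and -3.49, -3.70, -5.22 and -5.81 in low N, and 1.54, 1.06, 0.90 and 0.32 in control P and -0.08, -0.28, -0.36 and -0.47 in low P. Its decrease under low P was 3.09 ± 1.00 smaller than under low T and 3.04 ± 1.00 smaller than under low N (adjusted p = 0.0182 and 0.0356), and neither passed without replicate 3 (adjusted p = 0.112 and 0.108) or 4 (adjusted p = 0.145 and 0.141). The difference from low N did not pass without replicate 2 (adjusted p = 0.0929), with normexp (adjusted p = 0.18) or with spike-in scaling (adjusted p = 0.107). Of its 4 low N arrays, 2 were well above background. The BTB-POZ and MATH protein was lowered by 1.05 ± 0.35 and 0.91 ± 0.35 more under low T than under low N and low P, but neither difference passed with the replicate block (adjusted p = 0.0859 and 0.0984).

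**Figure D3:**
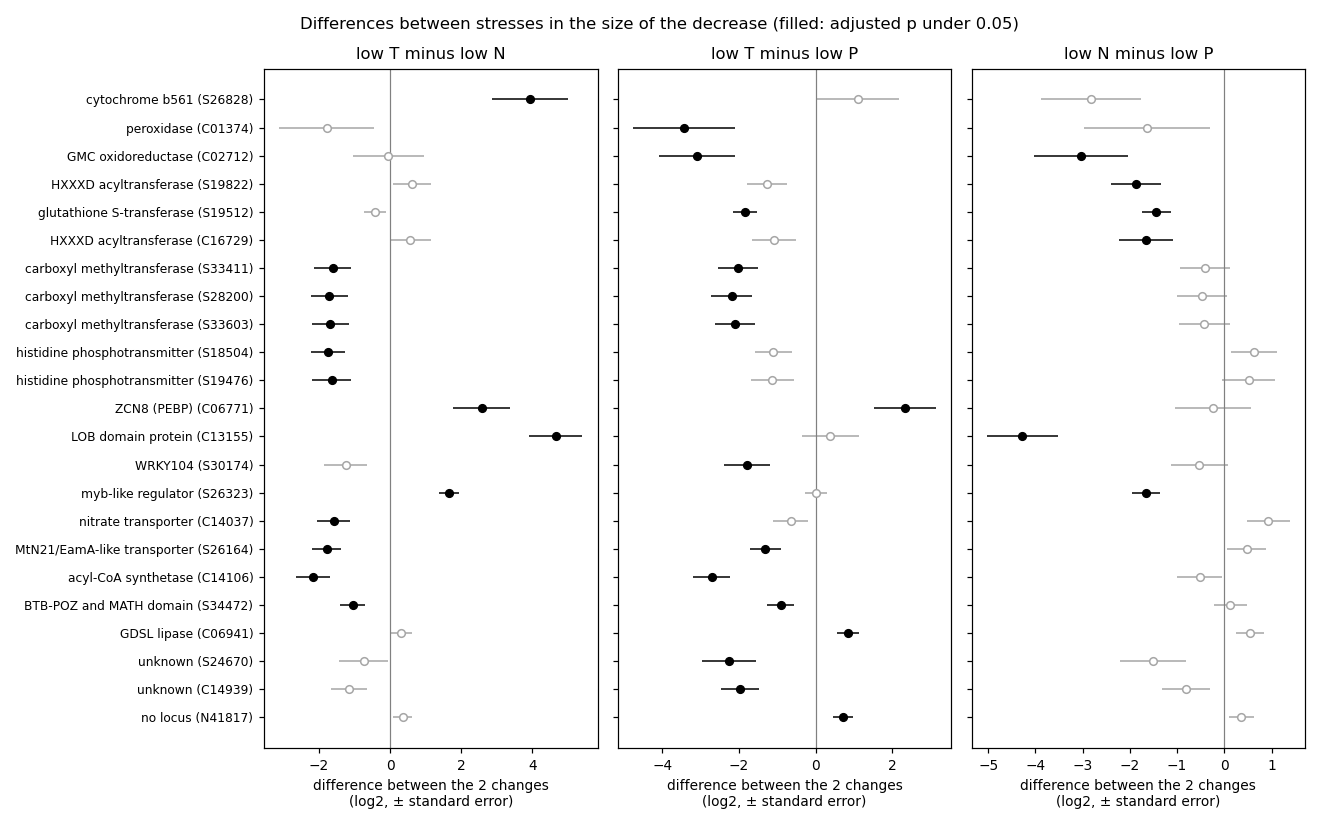
Difference between 2 stresses in the log2 change (x axis, bars of 1 standard error) for the 23 member probes (y axis) with at least 1 such difference past an adjusted p of 0.05, filled where it passed. Points left of 0 were lowered more by the first stress named, as 12 of the 15 filled points are in the comparison of low T with low P.

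Low P arrays and their controls lay on separate slides, so that slide and low P cannot be told apart. With the slide as a random block, 2 of the 15 differences between low T and low P passed, those of the acyl-CoA synthetase and the glutathione S-transferase. Of the 6 between low N and low P, 0 passed. Cold and control leaves of replicates 1 and 2 were hybridized on the same slide, and those of replicates 3 and 4 on a second one. The plants of the cold and low N experiments were also raised in 2 consecutive sets each, per the study's methods, and which replicates came from which set is not given in the sources used here. The part of slide or set in the values below was not tested. The decrease under low T was larger in replicates 3 and 4 for 42 of the 44 members, beside 55.5% of the 2241 probes called lower under low T. Its median was -3.06 in replicates 3 and 4 and -1.82 in replicates 1 and 2. All 44 members passed the limit of -1 in replicates 3 and 4, which for the 42 follows from the rule's limit on the mean of all 4. In replicates 1 and 2, 30 passed it and the smallest decrease was 0.12. Counts in this paragraph without a share of all probes beside them are descriptions only. Control T replicates 3 and 4 both lay above replicates 1 and 2 for 33 members, beside 38.9% of all tested probes. ZCN8, for example, was 0.78 lower in the first pair and 3.04 lower in the second, and the NAM protein 0.25 and 2.28 lower. Under low N the larger decrease came in replicates 1 and 2 for 32 members, with medians of -2.20 and -1.75. On the 1 slide that held both control N and low N arrays (1 control N and 2 low N arrays), the median difference was -1.70. There 34 members were lower in low N by at least 1 unit. That all 44 were lower on this slide follows from the rule, which set every low N array below every control N array.

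**Figure D4:**
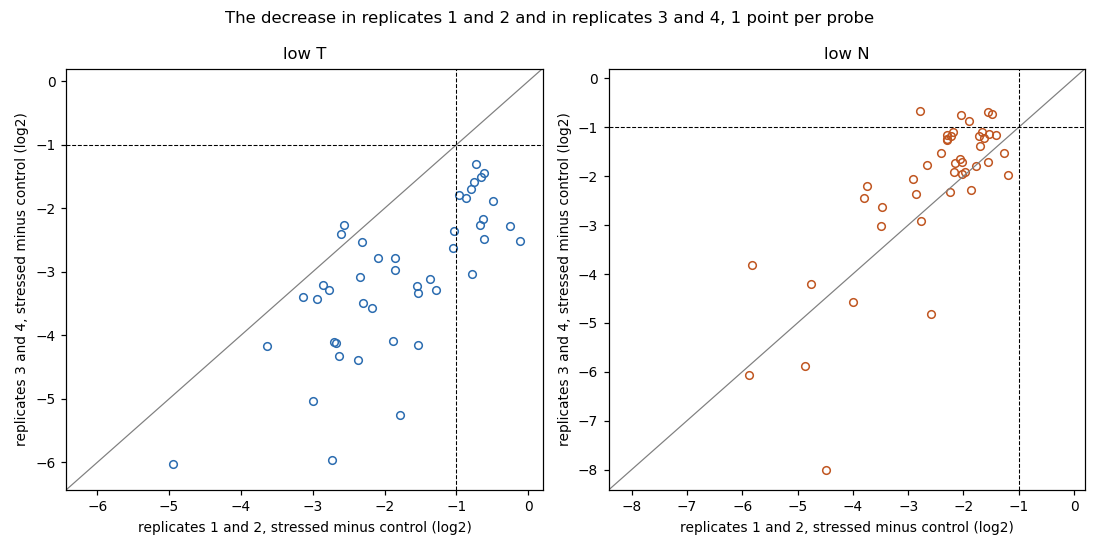
Log2 difference of stressed against control leaves in replicates 1 and 2 (x axis) and in replicates 3 and 4 (y axis), with 1 point per member probe, for low T (left) and low N (right). The line marks equal decreases and the dashed lines -1. Under low T 42 of 44 points lie below the line, and 14 lie right of -1 on the x axis.

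The 3 control groups were compared with each other, a comparison the rule did not make, although it used the same control arrays. The adjusted p-values of members are therefore descriptions, and the counts are given beside the share of all probes. Control N and control P, which had the same nominal treatment, leaf and age, differed for 0 of 44 members by limma at over 2-fold and an adjusted p under 0.05. This was near the share of all tested probes, 0.74%. By the same test 8 members had an unadjusted p under 0.05, 7 of them with control N lower. The share of all probes at that limit was not computed, so nothing is read from this count. Control T differed from the mean of control N and control P for 23 members (52.3%), beside 17.3% of all tested probes. It was lower for 21 of them (47.7%), beside 5.23%, and higher for 2 (4.55%), beside 12.1%. The median difference over the members was -0.99, beside 0.00 over all tested probes, and 38 of 44 were numerically lower in control T. All 4 control T arrays lay below all 8 control N and control P arrays for 17 members, beside 13.7% of all tested probes.

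Cytochrome b561 was 5.12 ± 0.65 (SE) lower in control T than in the nutrient controls (adjusted p = 2.6e-06), ZCN8 3.63 ± 0.50 lower (adjusted p = 5.92e-06) and the nitrate transporter 3.55 ± 0.28 lower (adjusted p = 8.6e-09). The wall-associated kinase was 3.47 ± 0.54 lower (adjusted p = 2.77e-05), WRKY104 3.26 ± 0.36 (adjusted p = 5.71e-07) and the 2-oxoglutarate oxygenase 2.95 ± 0.55 (adjusted p = 0.000184). The GMC oxidoreductase was 1.60 ± 0.61 higher (adjusted p = 0.0339) and the acyl-CoA synthetase 1.31 ± 0.29 higher (adjusted p = 0.000979), the former not past the threshold without replicate 3 or 4 (adjusted p up to 0.284). For the nitrate transporter and OptiV1N41817 every unstressed control T array lay below every low N array, 2 of 44 members beside 17.4% of all tested probes. The difference in control T cannot be told apart from leaf, plant age, chamber and slide.

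**Figure D5:**
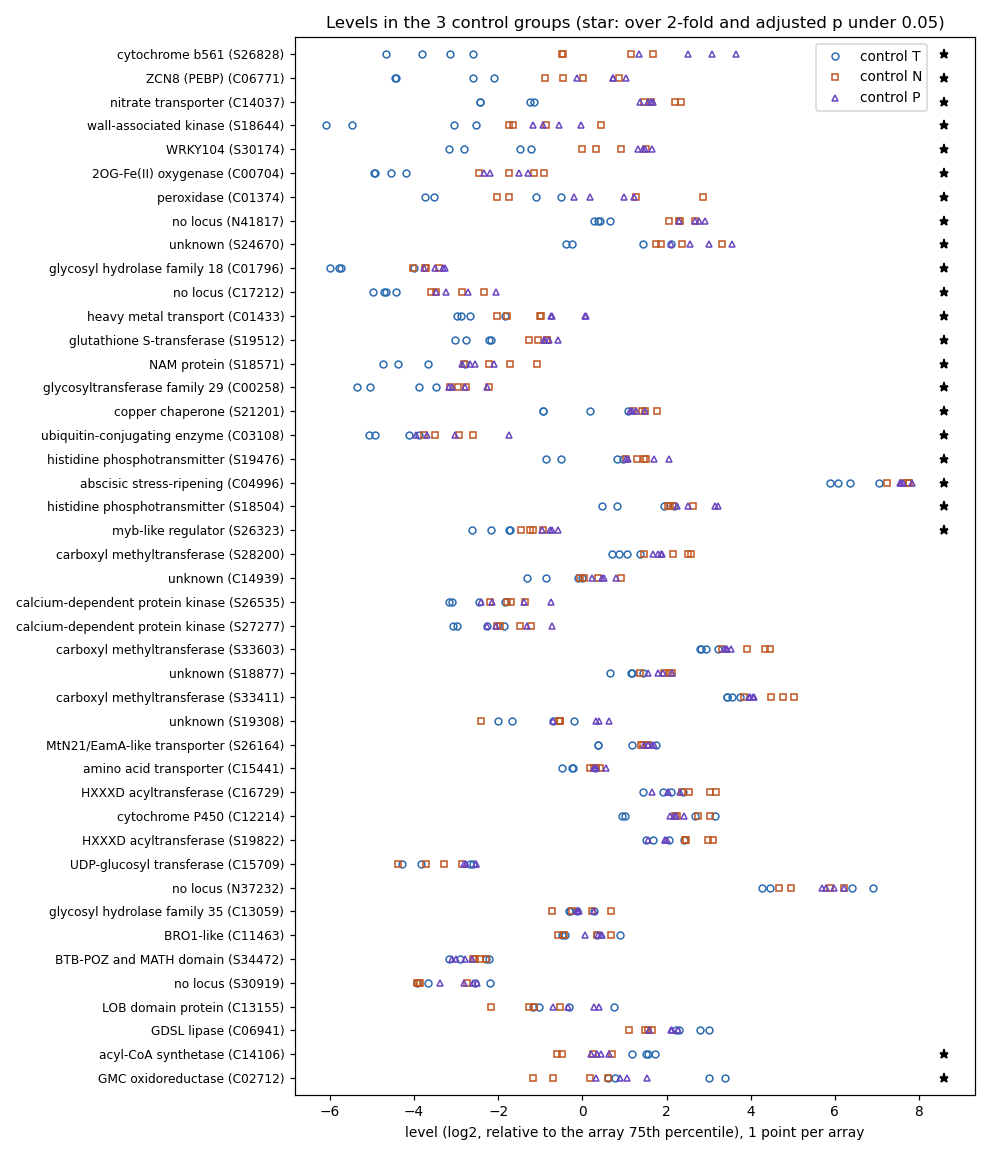
Log2 levels relative to the array's 75th percentile (x axis) on the 12 control arrays for each of the 44 member probes (y axis, ordered by the difference of control T from the other controls), with 1 symbol per array. Stars mark the 23 probes called different, and the 21 starred rows at the top have the lower control T means.

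Relatives of the members did not share the decrease throughout. Most families were counted over transcripts that the study's tables list as called in some stress, and those for low T and low P were held only in part, so no share is read from them. Of 18 further glutathione S-transferases, 5 fell and 2 rose under low T, but 2 fell and 13 rose under low P. Of 17 further GH18 hydrolases or chitinases, 3 fell and 4 rose under low T and 1 fell and 15 rose under low P. Of 6 further wall-associated kinases, 6 fell under low T and 2 under low N, where 1 rose, and none was called in the low P experiment. All 3 further carboxyl methyltransferases fell in the cold, 2 of them also in the low N experiment and 1 in the low P experiment. Of 11 calcium-dependent kinases 7, 1 and 4 fell and 3, 1 and 1 rose under low T, low N and low P, and of 40 amino acid transporters 20, 9 and 11 fell and 5, 2 and 10 rose.

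The lists of nitrate genes, which the study did not choose by these calls, were complete. Of 6 nitrate reduction genes, 2 fell under low T, 6 under low N and 6 under low P, and 0 rose. Of 8 nitrate transport genes, 2, 4 and 2 fell, and 1 rose under low P. These counts include probes that met the value limits of the rule and were left aside only as listed genes. They are the 2 reductases counted as lower under low T and the transporter probe OptiV1C13647, so the counts are no separate support for the members. The probes left aside by the rule came from these lists and from asparagine synthase. Nitrate reductases OptiV1C08466 and OptiV1S19330 fell by 1.20 and 1.19 under low T, 3.11 and 3.01 under low N and 1.17 and 1.20 under low P, and asparagine synthase OptiV1C01172 by 1.02, 1.12 and 1.29. The member nitrate transporter differed from the reductases in order, with its smallest decrease under low N. Of the 37 member loci, 20 were found in the RefSeq gene table, on 9 chromosomes, and the closest pair, ZCN8 and the phosphotransmitter, had 36 genes between them.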

How the data were processed

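Leaf RNA of the 24 samples was labelled with 1 dye and hybridized to a custom Agilent maize array with 43197 spots. The intensity values were deposited as the authors obtained them from Agilent Feature Extraction (11.7.1, per the submitters' processing notes), with the background subtracted and no scaling between arrays. The authors also deposited 1 table of log2 values, scaled to the 75th percentile of each array and then baseline corrected, which differed from the intensities by 1 constant per array and per probe and was used to choose the members. Levels were computed here as log2 intensity minus the 75th percentile of the array, without spots with an outlier flag. The number of arrays limits the precision.

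A probe was tested if 1 or more groups had it well above background in all 4 replicates (31507 of 41780) with limma 3.58.1 in R 4.3.3, with Benjamini-Hochberg adjustment over all of them. Differences between stresses and between control groups were contrasts in 1 fit of 6 groups and 24 arrays. The script was tested on simulated data. A bound sets the brighter group's mean against the mean, per dim array, of the higher of the probe's signal and the lowest one called well above background on that array. It is approximate and no strict minimum, because spots can fail that call at a higher signal. A low N spot of the myb-like OptiV1S26323 did so at -4.66 or above, beside the mean of -5.8 used for the low N bounds. Per-array values are given for up to 3 members per class, those with the largest mean decrease, and also named are members near the limit, with an array far from its group, or with differences in at least 2 of 3 stress contrasts. Also shown per array are the GMC oxidoreductase, for the last reason, and OptiV1S33411, as an example of 3 near-alike methyltransferase probes.

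The members, the lists and the tests were chosen with earlier results of these data known. Locus names come from the study's tables. The RefSeq table held 20 of 37 loci on a later genome build (Zm-B73-REFERENCE-NAM-5.0), so no coordinates were taken from it. No sequences were used here. The normexp alternative used the median signal with an offset of 50. The labels call the samples biological replicates. Deviations of same-numbered arrays were correlated in the cold (0.189 to 0.424) and low N experiments (0.175 to 0.362), where every pair exceeded 0.1. They were not in the low P experiment (-0.104 to 0.0452), and the labels tie no number to a shared batch. The main fits, with their standard errors and adjusted p-values, did not use this pairing. Replicate numbers entered only in the replicate block, an alternative for the differences between stresses. Per the study's methods, plants were raised in 2 consecutive sets in the cold and low N experiments and in 1 set in the low P experiment. The files held 0 columns of other samples. Figures were drawn with Python and matplotlib.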

Additional observations from a re-analysis of the deposited data

Results flagged for a closer look

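Of 264 groups of 4 arrays (44 members in 6 groups), 12 had 1 array far from the other 3 by Dixon's ratio, and chance alone flags about 1 in 20. In the cold experiment these were GT29 glycosyltransferase OptiV1C00258 (low T replicate 1 at -5.54, the others at -6.18 to -6.08), GH18 hydrolase OptiV1C01796 (control T replicate 3 at -4.0, others at -6.0 to -5.74) and acyl-CoA synthetase OptiV1C14106 (low T replicate 2 at -1.34, others at -2.84 to -2.72). In the low N experiment they were OptiV1S18877 (low N replicate 4 at -0.36, others at 0.42 to 0.44), OptiV1S19308 (control N replicate 3 at -2.41, others at -0.55 to -0.52) and OptiV1S30919 (control N replicate 3 at -2.74, others at -3.92 to -3.87). In the low P experiment they were GDSL lipase OptiV1C06941 (low P replicate 4 at -0.46, others at 0.02 to 0.11), GH35 hydrolase OptiV1C13059 (control P replicate 2 at 0.27, others at -0.13 to -0.09), amino acid transporter OptiV1C15441 (control P replicate 1 at 0.57, others at 0.27 to 0.32), wall-associated kinase OptiV1S18644 (low P replicate 1 at -2.88, others at -4.12 to -3.98), acyltransferase OptiV1S19822 (control P replicate 1 at 1.55, others at 1.97 to 2.0) and the MtN21/EamA-like transporter OptiV1S26164 (low P replicate 3 at 0.76, others at -0.31 to -0.18).

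The change under 1 stress differed from that under another by a limma interaction test in 34 cases. A negative value means a larger decrease under the stress named first. Between low T and low N the differences were 4.66 for the LOB domain protein OptiV1C13155, 3.93 for cytochrome b561 OptiV1S26828, 2.57 for ZCN8 OptiV1C06771 and 1.66 for the myb-like OptiV1S26323. They were -2.18 for acyl-CoA synthetase OptiV1C14106, -1.78 for transporter OptiV1S26164, -1.59 for nitrate transporter OptiV1C14037, -1.05 for the BTB-POZ protein OptiV1S34472, -1.74 and -1.65 for phosphotransmitter probes OptiV1S18504 and OptiV1S19476, and -1.71, -1.62 and -1.68 for carboxyl methyltransferases OptiV1S28200, OptiV1S33411 and OptiV1S33603.

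Between low T and low P they were 2.33 for ZCN8, 0.85 for GDSL lipase OptiV1C06941 and 0.71 for OptiV1N41817. They were -3.43 for peroxidase OptiV1C01374, -3.09 for GMC oxidoreductase OptiV1C02712, -2.71 for acyl-CoA synthetase OptiV1C14106, -1.97 for OptiV1C14939, -2.26 for OptiV1S24670, -1.85 for glutathione S-transferase OptiV1S19512, -1.31 for OptiV1S26164, -1.79 for WRKY104 OptiV1S30174, -0.91 for OptiV1S34472, and -2.19, -2.02 and -2.1 for methyltransferases OptiV1S28200, OptiV1S33411 and OptiV1S33603. Between low N and low P they were -4.28 for OptiV1C13155, -3.04 for OptiV1C02712, -1.44 for OptiV1S19512, -1.66 for OptiV1S26323, and -1.88 and -1.66 for acyltransferase probes OptiV1S19822 and OptiV1C16729.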

How the results depend on the processing

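All 132 stressed minus control differences of the members stayed below 0 under normexp background correction, quantile normalization and spike-in scaling, but fewer probes met the whole rule. The 44 became 20 with normexp (18 of them members), whose offset compresses dim signals, 15 with spike-in scaling (15), 11 at a limit of -1.5 and 132 at a 1.5-fold limit, and 47 to 59 when 1 replicate number was left out. With normexp the cold and control T arrays were apart for 20 of the 44 members, and the nutrient groups for 43 each. Spike-in scaling moved the median difference of all tested probes by 0.447, 0.538 and 0.211 in the cold, low N and low P experiments.

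The members with a different decrease under low T and low N (13) numbered 4 with normexp, 8 with spike-in scaling and 5 to 14 without 1 replicate number. Those for low T and low P (15) numbered 6 with normexp, 2 with the slide as a random block and 8 to 13 without 1 number, and those for low N and low P (6) numbered 2, 1 (spike-in), 0 (slide), 3 among probes well above background on all 24 arrays and 3 to 5. The low T and low P differences of peroxidase OptiV1C01374 and BTB-POZ protein OptiV1S34472 changed sign with normexp, to 0.00 and 0.04, and the cause was not tested. With the replicate block 12, 17 and 7 members passed, and 4 of the 34 differences were lost: nitrate transporter OptiV1C14037 (adjusted p = 0.0611), OptiV1N41817 (0.0587) and both of OptiV1S34472.

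The 23 members that differed between control T and the nutrient controls numbered 13 among the 31 members well above background on all arrays, 16 with normexp, 19 with the slide block (added after the data were seen) and 20 to 26 without 1 number. Apart from the slide block, 13 of the 23 passed under every alternative in which they could be tested.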
